A study of Mus musculus with 7 samples.

Results

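The 7 genes described are mouse genes for proteins that neutrophils store in granules or hold in large amounts in the cytosol, namely Ngp, Camp, Ltf, Mpo, Elane, S100a8 and S100a9. They were chosen by name, and each was measured by 1 probe set, so that 7 of the 45101 probe sets on the array were used for them. The study profiled macrophages sorted by GFP and by the macrophage surface protein that Adgre1 encodes, with 4 arrays from Gl261 tumours and 3 from normal brain, all from mice of strain C57/Bl6. Gl261 is a mouse glioma cell line. It was injected into the brains of mice that had received GFP bone marrow, and the tumours were taken after 21 days. Mice 8 weeks old gave the normal brain samples. Whether these carried GFP marrow, and how old the tumour-bearing mice were, is not stated in the labels. Brain with or without tumour was digested with an enzyme that the labels spell PAPIN, RNA was labelled with biotin, and the values are MAS5 signals, a linear intensity per probe set. The labels do not say whether the arrays of a group came from separate mice, so p-values measure only the spread between these arrays.

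Neutrophils make their granule proteins in the bone marrow, in an order that follows maturation. Azurophil granules, which hold Mpo and Elane, are filled at the promyelocyte stage, and specific granules, which hold Ltf, Camp and Ngp, at the myelocyte stage, while S100a8 and S100a9 gather in the cytosol. Granule messages fall as the cells mature and leave the marrow, whereas S100a8 and S100a9 messages stay abundant in blood neutrophils and are also made by classical monocytes.

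The median signal was 50.9 to 65.0 in Gl261 and 49.5 to 73.0 in normal brain. The trimmed mean signal, which leaves out extreme values, was nearly identical on every array, so the deposited values had been scaled to a common level. Similar overall levels therefore follow from the scaling and say nothing about the samples. Probe sets at the 3' and 5' ends of a message give a ratio that reads RNA integrity. For Gapdh it was 1.64 to 1.89 in Gl261 and 2.39 to 2.43 in normal brain. For actin it was 1.36 to 1.52 in Gl261 and 1.43 to 1.64 in normal brain, so the groups overlapped. The part of RNA integrity in the results was not tested. All 9 genes of a macrophage marker list were tested, and their summed signal was 49177 to 65935 in Gl261 and 58293 to 68295 in normal brain. Adgre1, the gene of the sorting marker, had a log2 difference, Gl261 minus normal brain, of -0.39 (95% interval -0.68 to -0.10) and was not called (limma adjusted p = 0.0814). In the same fit 1 of the 9 genes was called lower and 1 higher, both with groups that did not overlap. Cx3cr1 was at -0.71 (limma adjusted p = 0.027) and Mertk at 1.06 (0.0243). Without Gl261 replicate 1 or 4 or normal brain replicate 3, 0 genes of the list were called.

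The granule genes were lower in the Gl261 samples, by 3.71 to 4.66 on the log2 scale for Ngp, Camp, Ltf and Mpo and by about 1 for the cytosolic pair. With a pseudocount of 58 those of Ltf and Mpo, which were near background in Gl261, were -2.32 and -2.05. In a limma fit on log2(signal + 6) over 12125 genes, with genes called at a Benjamini-Hochberg adjusted p under 0.05, 6 of the 6 granule genes tested fell and 0 rose. Over all genes tested, 4.2% were called lower, 5.92% higher and 10.1% in either direction. The filter on low values took out Elane, and Mpo passed it only through its level in normal brain, so the count over tested genes is no support by itself. With no filter, over 18193 genes, 5 of the 7 were called lower, where 2.17% of all genes were. In all 7 genes every Gl261 array was below every normal brain array, a pattern that 10.4% of tested genes had. The median log2 difference of all tested genes was 0.04. Fewer cells that hold these messages and less message per cell cannot be told apart in such samples.

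**Figure D1:**
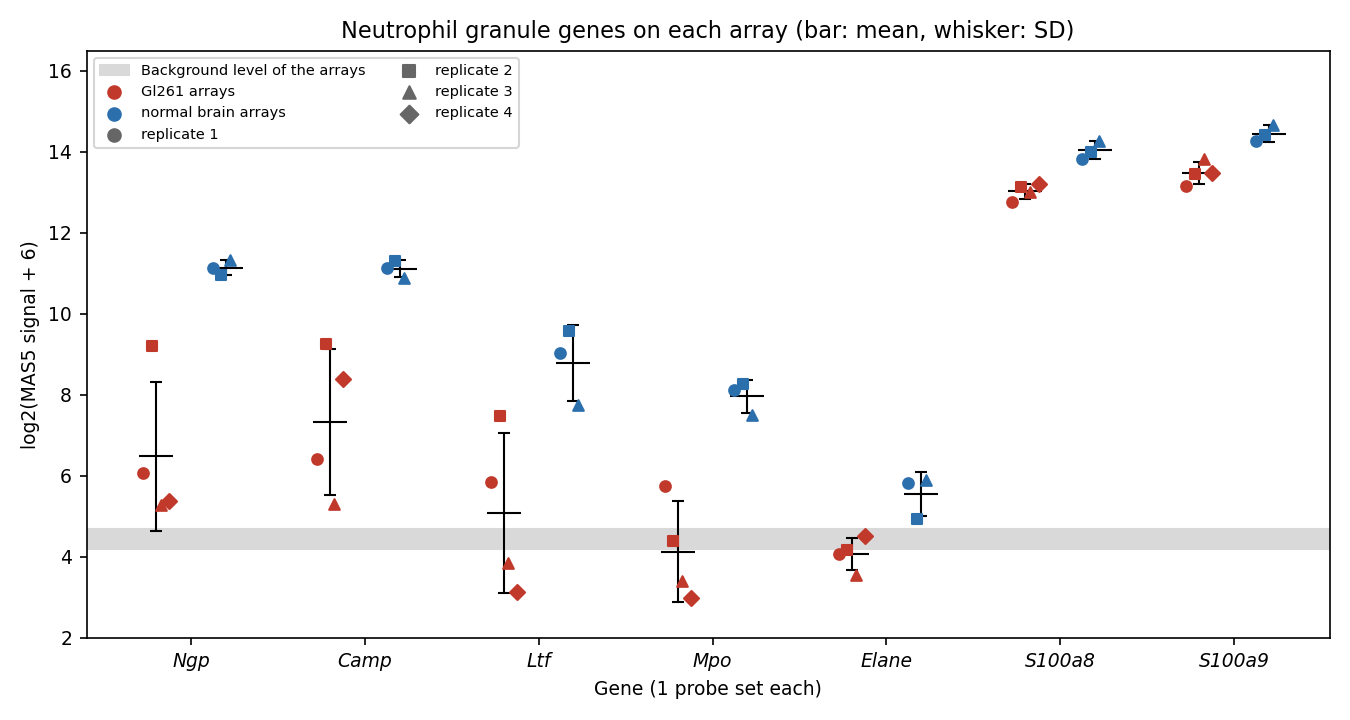
Signal of the 7 granule genes on each array, on the log2(signal + 6) scale, with Gl261 (red) left of normal brain (blue) for each gene, points for arrays, a bar for the group mean, whiskers for the SD and a grey band for the background of 4.19 to 4.70. The Gl261 points of Ngp and Camp are spread widely and those of S100a8 and S100a9 lie close together, and for each gene all Gl261 points are below the normal brain points.

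Ngp encodes neutrophilic granule protein, a cystatin-like protein of specific granules in the mouse. Its signal was 61.8, 583, 32.7 and 35.4 in Gl261 replicates 1 to 4, against 2255, 1982 and 2573 in normal brain replicates 1 to 3. Gl261 replicate 2 stood above the other Gl261 arrays and was still below each normal brain array. Ngp fell by 4.66 on the log2 scale (SE 0.77, 95% interval -6.35 to -2.97, limma adjusted p = 0.0043), which is 25.3-fold lower with an interval of 7.85 to 81.6. It ranked 10 from the lowest log2 difference among all tested genes.

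Camp encodes the cathelicidin, an antimicrobial peptide kept in specific granules as a precursor. Its signal was 78.9, 602, 33.5 and 332 in the 4 Gl261 arrays, against 2255, 2545 and 1898 in the 3 normal brain arrays. Gl261 replicates 2 and 4 were the high ones of their group, and the groups did not overlap. Camp fell by 3.78 on the log2 scale (SE 0.74, 95% interval -5.40 to -2.16, limma adjusted p = 0.0098), or 13.7-fold. The call was lost with variances that do not follow the signal (adjusted p = 0.0652).

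Ltf encodes lactoferrin, the iron-binding protein that defines specific granules. Its signal was 51.8, 173, 8.34 and 2.71 in Gl261, against 519.6, 757 and 208 in normal brain. The highest Gl261 array was close below the lowest normal brain array, and Ltf was above the background of the array's control probe sets on 2 of 4 Gl261 arrays. Ltf fell by 3.71 (SE 0.93, 95% interval -5.73 to -1.69, limma adjusted p = 0.0274). Its call was lost without Gl261 replicate 3 (adjusted p = 0.0825) or 4 (0.0638) and without normal brain replicate 1 (0.0687) or 2 (0.0790), as well as with no filter on low values (0.0519) and with variances that do not follow the signal (0.0919). With a pseudocount of 58 its log2 difference was -2.32.

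The 250 bases before the start of these 3 genes, from RefSeq in the GRCm38.p6 build, are shown because the 3 genes lie near each other on chromosome 9 and differed between the groups by similar amounts. The labels name no genome build. Capitals mark matches to TTNNGNAA or its reverse complement TTNCNNAA, letters of the kind bound by C/EBP factors. The regions are chr9:110419558-110419807 on the plus strand for Ngp, chr9:109849457-109849706 on the minus strand for Camp and chr9:111019042-111019291 on the plus strand for Ltf.
Ngp: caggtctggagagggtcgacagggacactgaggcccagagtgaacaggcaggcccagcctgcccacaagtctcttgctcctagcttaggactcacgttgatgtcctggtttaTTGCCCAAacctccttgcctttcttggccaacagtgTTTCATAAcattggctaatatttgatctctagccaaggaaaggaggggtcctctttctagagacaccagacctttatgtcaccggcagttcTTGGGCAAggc
Camp: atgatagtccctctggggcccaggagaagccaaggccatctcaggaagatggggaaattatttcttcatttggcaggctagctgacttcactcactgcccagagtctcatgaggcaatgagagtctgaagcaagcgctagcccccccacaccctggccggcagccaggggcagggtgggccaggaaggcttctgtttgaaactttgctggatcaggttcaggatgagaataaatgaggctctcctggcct
Ltf: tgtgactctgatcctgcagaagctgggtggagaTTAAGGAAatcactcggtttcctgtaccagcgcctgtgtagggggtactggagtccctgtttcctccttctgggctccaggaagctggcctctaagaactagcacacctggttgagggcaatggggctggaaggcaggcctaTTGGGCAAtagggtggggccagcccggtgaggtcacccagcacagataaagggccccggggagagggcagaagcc

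The sequences hold 3 matches for Ngp, 2 for Ltf and 0 for Camp. Counting S100a8 with 1 and S100a9 with 2, 4 of the 7 genes had a match, against 36.8% of 32851 promoters of the same length. In all, 10 letter strings were searched on both strands in the promoters of the 7 genes, and this one and GAGGAA were kept after their counts were seen. The other 8 strings, with the number of the 7 genes that held them and their share of all promoters, were TTGCNNAA (3 genes, 9.56%), TTNCGNAA (0, 2.04%), TTGCGCAA (0, 0.164%), GAGGAAG (3, 10.6%), TATAAA (1, 12.4%), TTGCNCAA (2, 2.61%), TTTCCNC (4, 19.2%) and GGAA (7, 93.4%). Several of these strings overlap in their letters, and a match is no evidence that a factor binds.

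By the RefSeq order of genes, 8 coding genes lie between Camp and Ngp and 20 between Ngp and Ltf. Of the 28 other coding genes in the interval from Camp to Ltf, 15 were tested and 0 were called in either direction by limma. Their median log2 difference was 0.05, and the lowest was -0.73 for Ptpn23. This count was added after the values of the granule genes were seen.

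Mpo encodes myeloperoxidase, the enzyme of azurophil granules that makes hypochlorous acid. Its signal was 48.0, 15.1, 4.51 and 1.86 in Gl261, against 272, 305 and 176 in normal brain. Gl261 replicate 1 was the high array here, not replicate 2, and the groups did not overlap. Mpo fell by 3.84 on the log2 scale (SE 0.67, 95% interval -5.30 to -2.38, limma adjusted p = 0.00564). With a pseudocount of 58 in place of 6 the log2 difference was -2.05, and with 1 it was -4.54. It was above background on 2 of 4 Gl261 arrays, and on 1 when the highest control probe set was taken as background.

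Elane encodes neutrophil elastase, a serine protease of azurophil granules. Its signal was 10.9, 11.9, 5.71 and 16.9 in Gl261, against 50.6, 24.5 and 53.7 in normal brain. It was not above background on any of the 4 Gl261 arrays and was above it on 3 of 3 normal brain arrays, with no overlap. Measured against background it was at least 2.30-fold lower in Gl261, a bound that leaves out the spread between arrays. Its mean signal was too low for the fit over 12125 genes. With no filter its log2 difference was -1.47, and it was not called (limma adjusted p = 0.123).

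The same stretch before Mpo and Elane is shown for the azurophil pair, with capitals at GAGGAA or its reverse complement TTCCTC, letters of the kind bound by ETS factors such as PU.1. The RefSeq regions in GRCm38.p6 are chr11:87793534-87793783 on the plus strand for Mpo and chr10:79886062-79886311 on the plus strand for Elane.
Mpo: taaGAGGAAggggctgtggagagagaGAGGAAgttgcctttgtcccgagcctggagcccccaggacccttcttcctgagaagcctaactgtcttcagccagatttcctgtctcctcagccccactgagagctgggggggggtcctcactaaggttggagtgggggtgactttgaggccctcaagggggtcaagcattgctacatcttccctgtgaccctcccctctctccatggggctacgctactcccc
Elane: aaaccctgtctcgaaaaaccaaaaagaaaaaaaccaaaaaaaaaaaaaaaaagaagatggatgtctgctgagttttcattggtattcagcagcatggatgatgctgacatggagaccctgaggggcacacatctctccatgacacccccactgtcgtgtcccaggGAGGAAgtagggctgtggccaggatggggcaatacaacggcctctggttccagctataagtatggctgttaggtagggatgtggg

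Mpo has 2 matches and Elane 1, and with 1 in Ltf and 2 in S100a8 the string was found in 4 of the 7 genes, against 23.3% of all promoters.

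S100a8 and S100a9 encode the calgranulins, calcium-binding proteins that pair to form calprotectin. The signal of S100a8 was 6989, 8971, 8287 and 9396 in Gl261, against 14621, 16486 and 19814 in normal brain. All Gl261 arrays were below all normal brain arrays. S100a8 fell by 1.01 on the log2 scale (SE 0.16, 95% interval -1.36 to -0.66, limma adjusted p = 0.00336), or 2.01-fold. Its probe set is of a design class that may match more than 1 transcript.

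The signal of S100a9 was 9176, 11167, 14433 and 11433 in Gl261, against 19627, 21953 and 26142 in normal brain. As for S100a8, the groups did not overlap. S100a9 fell by 0.97 (SE 0.18, 95% interval -1.36 to -0.59, limma adjusted p = 0.00678), or 1.97-fold. Neither calgranulin was called after the arrays were centred on their medians (adjusted p = 0.0677 for S100a8 and 0.108 for S100a9), although the log2 differences, -1.02 and -0.99, were nearly the same. With variances that do not follow the signal, S100a9 was not called either (adjusted p = 0.0561). S100a8 and S100a9 are neighbours on chromosome 3, with 0 coding genes between them.

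Within Gl261 the arrays spread widely in Ngp and Camp and little in the calgranulins. The log2 level of Ngp was 6.48 ± 1.85 in Gl261 (SD, n = 4) and 11.14 ± 0.19 in normal brain (SD, n = 3), and that of S100a8 was 13.03 ± 0.19 in Gl261 and 14.04 ± 0.22 in normal brain. The highest Gl261 signal of Ngp was 17.8 times the lowest, where the ratio in normal brain was 1.30. The ratios in Gl261 and normal brain were 18.0 and 1.34 for Camp. For Ltf and Mpo no such ratio is given, since 2 of the 4 Gl261 arrays were not above background. For S100a8 they were 1.34 and 1.36, and for S100a9 1.57 and 1.33. Gl261 replicate 2 was the highest array of its group for Ngp, Camp and Ltf, replicate 1 for Mpo, replicate 4 for Elane and S100a8, and replicate 3 for S100a9. Without Gl261 replicate 2 the log2 differences were -5.57 for Ngp, -4.41 for Camp, -4.51 for Ltf, -3.93 for Mpo, -1.04 for S100a8 and -0.96 for S100a9, and 6 were called lower.

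**Figure D2:**
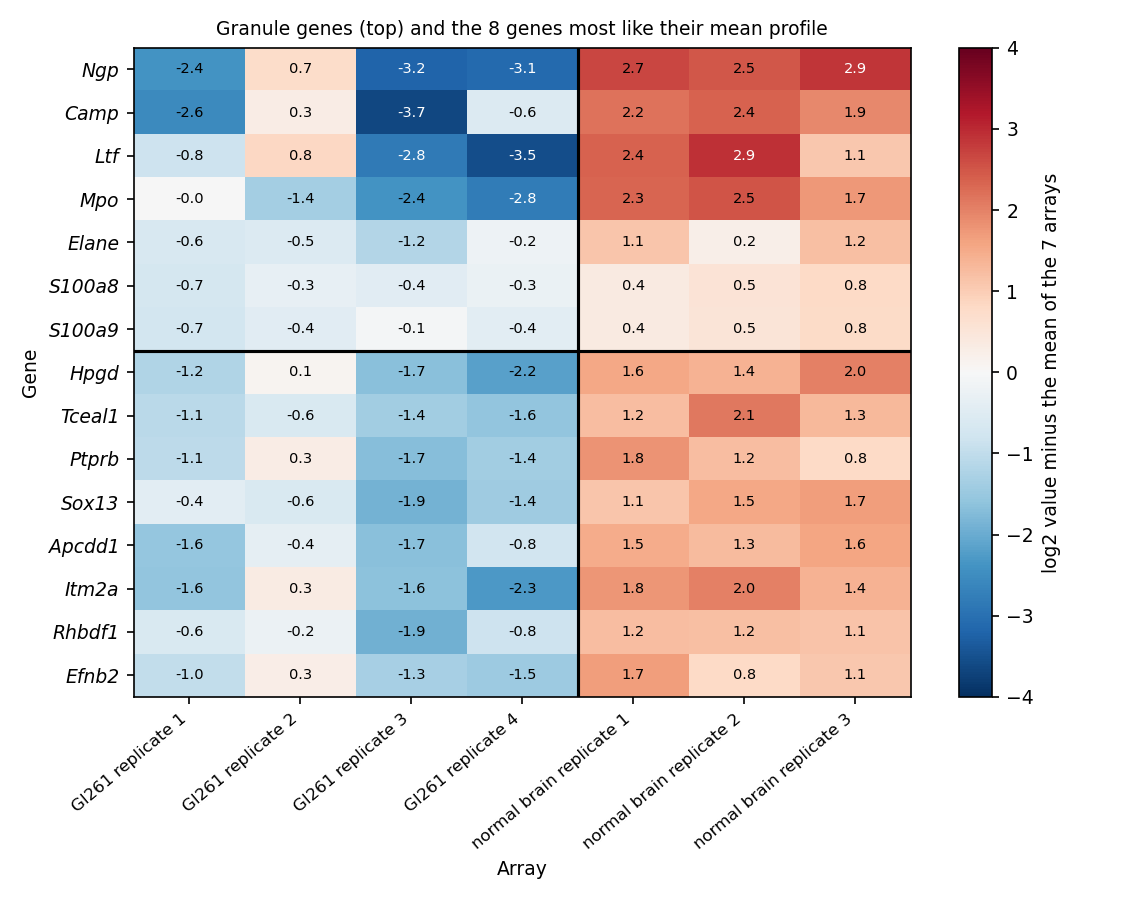
Log2(signal + 6) of the 7 granule genes (top) and the 8 genes nearest to their mean profile (bottom) on each array. Values are centred on each gene's mean over the 7 arrays, with Gl261 arrays left of normal brain arrays and colour from -4 to 4. The 3 specific granule genes are highest within Gl261 in replicate 2, and S100a8 and S100a9 change little within a group.

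The log2 differences of 4 granule genes were set against those of the calgranulins in 8 pairs, a test added after the values were seen. Each gap is the log2 difference of the granule gene minus that of S100a8, then minus that of S100a9. The gaps were -3.65 and -3.69 for Ngp, -2.77 and -2.80 for Camp, -2.83 and -2.86 for Mpo, and -2.70 and -2.73 for Ltf. By a two-sided exact permutation test over the 35 splits of the arrays, p was 0.0571 for the pairs of Ngp, Camp and Mpo (0.0762 after Benjamini-Hochberg adjustment over 8 pairs) and 0.114 for those of Ltf (adjusted 0.114). For Ngp, Camp and Mpo 2 of the 35 splits gave a gap at least as large in size as the observed one, where the smallest p possible is 0.0286. No pair passed 0.05, and since Mpo was near background in Gl261 its gap is uncertain in size.

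Other genes of the granule lists were counted in the same fit. Of 4 other azurophil genes tested, 0 were called, at a median of -0.34. Among them Lyz1, Lyz2 and Ctsc were bright in both groups of these macrophage samples, at mean log2 levels of 13.53 to 14.61. The median therefore rests mostly on bright genes, and it does not hold Ctsg, which the filter took out. Prtn3, the protease proteinase 3 that shares azurophil granules with elastase, had a log2 difference of -0.45 (limma adjusted p = 0.698). Ctsg, cathepsin G of the same granules, was too low to test, above background on 0 of 4 Gl261 and 3 of 3 normal brain arrays, and at least 3.41-fold lower. Ctsc, which activates these proteases, was at -0.08 (adjusted p = 0.809), although another of its probe sets was called at -0.79. Prtn3 and Ctsg were chosen for description after their values were seen.

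Of 10 other specific granule genes, 1 fell and 1 rose, at a median of -0.17. Pglyrp1, a peptidoglycan recognition protein of these granules, fell by 1.40 on the log2 scale (adjusted p = 0.0046). Chil3, a chitinase-like protein made by macrophages as well as neutrophils, rose by 1.13 (adjusted p = 0.00382). Lcn2, lipocalin 2, was at -0.88 and was not called (adjusted p = 0.0592).

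The gelatinase granule and secretory vesicle list had 7 genes tested, of which 0 fell and 2 rose, at a median of 0.52. Adam8, a membrane protease, rose by 1.02, and Slc11a1, a metal transporter of phagosomes, rose by 0.73. The call of Slc11a1 was lost in 4 of the 7 fits without 1 array, with an adjusted p of up to 0.0732. Neither was called with variances that do not follow the signal (adjusted p = 0.0985 for Slc11a1 and 0.085 for Adam8). Fpr2, a formyl peptide receptor, was at 0.52 (adjusted p = 0.258), and Itgam, at 0.88, was not called either. Other genes of the list went the other way without a call. Alpl was at -1.92 with groups that did not overlap (limma adjusted p = 0.063). Mmp9 was at -1.31, with its other probe set at -1.26, and Cd14 was at -0.08. Without normal brain replicate 3, 1 gene of the list was called lower and 1 higher.

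**Figure D3:**
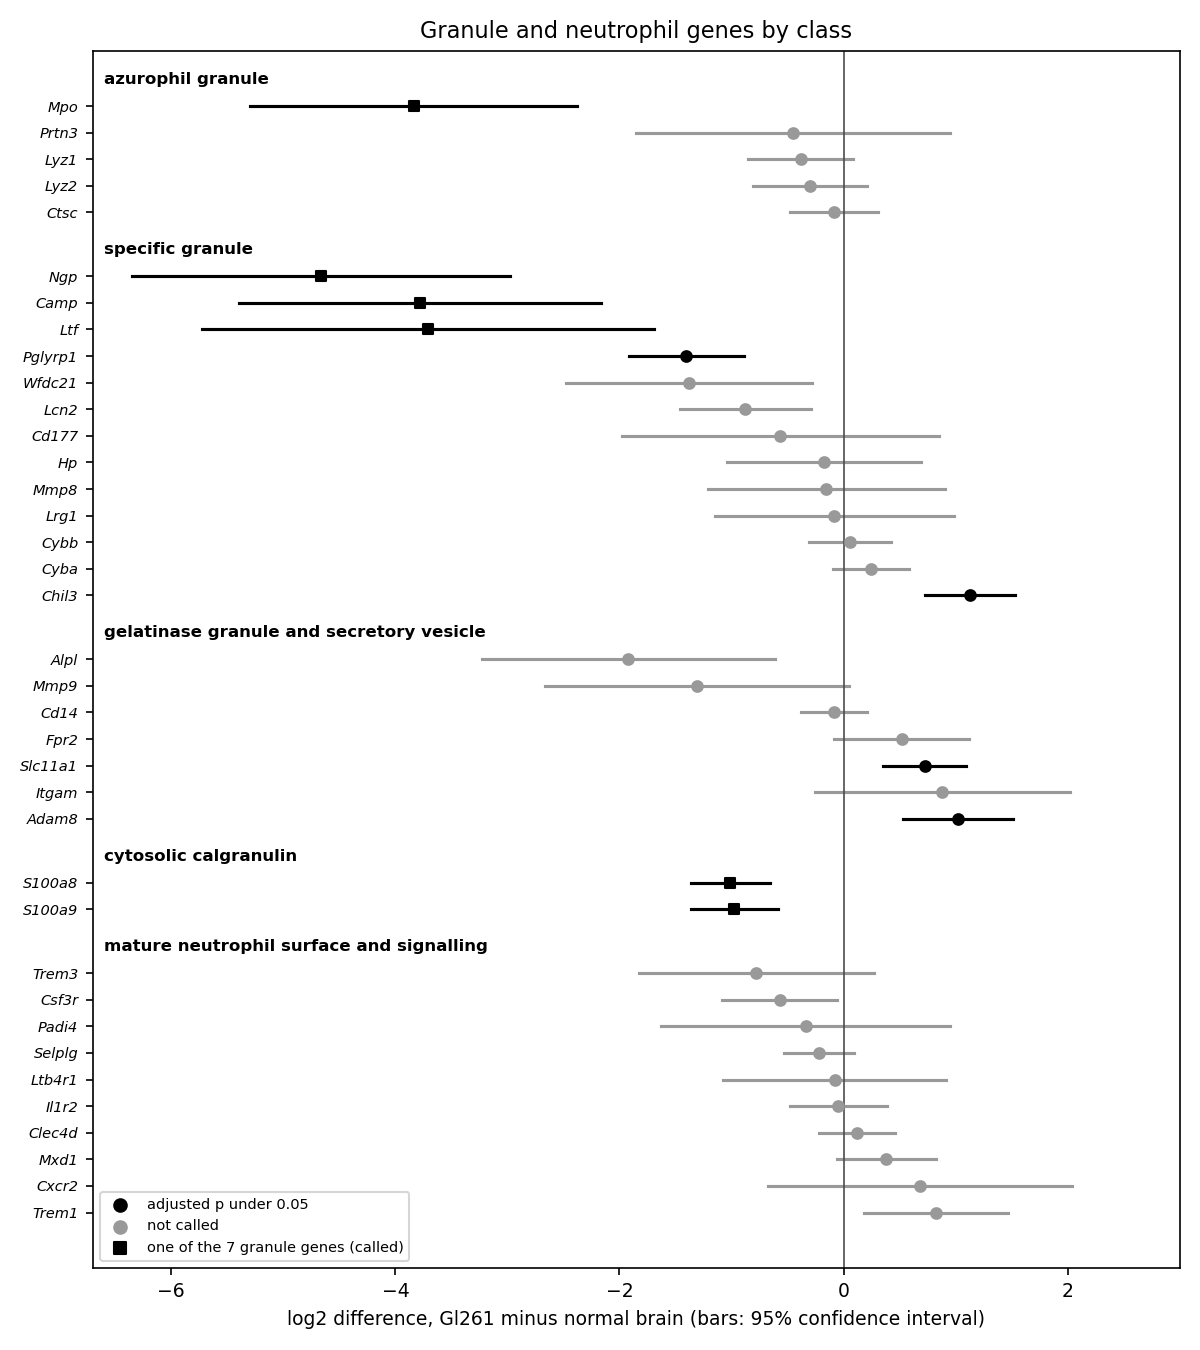
Log2 difference, Gl261 minus normal brain, of tested genes in the granule, calgranulin and mature neutrophil surface lists, with 95% intervals as bars, called genes in black and the 6 tested granule genes as squares. Ngp, Mpo, Camp and Ltf lie between -4.66 and -3.71 and the calgranulins near -1, while the medians of the other genes of the granule lists are -0.34 to 0.52. The median of -0.34 is that of the azurophil list, where Lyz1, Lyz2 and Ctsc were bright in both groups.

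No gene of the mature neutrophil surface and signalling list was called among 10 tested by limma, with 2 at an unadjusted p under 0.05 and a median of -0.06. Without normal brain replicate 1, 1 gene of that list was called higher. Csf3r, the receptor for the granulocyte growth factor, was at -0.57 (adjusted p = 0.15), and Cxcr2, a chemokine receptor of mature neutrophils, was at 0.68 (adjusted p = 0.525). Of 10 regulators of granulopoiesis, 1 rose and 0 fell, at a median of 0.17. Cebpb, a C/EBP factor also active in macrophages, rose by 0.99 (adjusted p = 0.012), although its other probe set, at 0.71, was not called. The call was lost with median centring (adjusted p = 0.0583) and with variances that do not follow the signal (0.0742). Gfi1, a repressor needed for neutrophil development, was at 2.12 with overlapping groups and was not called (adjusted p = 0.0928). Cebpe and Ly6g had no probe set with a single gene symbol.

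Among 5 granulocyte-monocyte progenitor genes 1 fell, at a median of -0.45. That gene, Flt3, a receptor also found on dendritic cell precursors, fell by 1.12 (adjusted p = 0.0205). Its call was lost in 5 of the 7 fits without 1 array and with variances that do not follow the signal (adjusted p = 0.0693). The summed signal of the list was 1222 to 2160 in Gl261 and 2313 to 3850 in normal brain, without overlap, and Flt3 was its brightest gene. Cd34 was at -2.20 with groups that did not overlap and was not called (limma adjusted p = 0.072). Ctsg, Fcnb and Ms4a3 were too low to test. Ctsg and Fcnb were above background on 0 and 1 of 4 Gl261 arrays and on 3 of 3 normal brain arrays. For Ms4a3 these counts were 3 of 4 and 1 of 3.

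Of 8 inhibitors of granule proteases, 3 rose and 0 fell, at a median of 0.14. Serpina3n, a secreted serine protease inhibitor, had signals of 319.8, 700.4, 273 and 419.5 in Gl261, against 13.9, 1.39 and 32.5 in normal brain, where 1 of 3 arrays was above background. It rose (adjusted p = 0.00146), and the fitted log2 difference of 4.51 depends on normal brain values at or near background. Cst7, cystatin F, which acts on the cathepsins that process granule proteases, rose by 1.83, and Serpinb6a, an intracellular serpin, rose by 1.13. Slpi, which inhibits elastase, was at -0.52 with overlapping groups (adjusted p = 0.429).

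Of 10 receptors and partners of released granule proteins, 1 fell and 2 rose, at a median of 0.31. Tlr2 fell by 0.62, and the scavenger receptor Cd36 and the integrin chain Itgb2 rose by 1.42 and 0.50. The other Cd36 probe sets were at 2.13 and 0.27. These calls were not stable, since that of Itgb2 was lost in 7 of the 7 fits without 1 array and those of Tlr2 and Cd36 in 5. Tlr4 and Ager, both receptors for calprotectin, were at -0.55 (adjusted p = 0.222) and -1.70 (adjusted p = 0.293). The other probe sets of Tlr4 were at 0.34 and 0.87 and that of Ager at -1.29, and none was called.

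Markers of other cell types are given beside the granule genes. A neutrophil marker list had 7 of its 10 genes tested, 0 called by limma and 1 at an unadjusted p under 0.05. Its summed signal was 5659, 9565, 5539 and 5644 in Gl261 and 7728, 8062 and 5846 in normal brain. The groups thus overlapped, with Gl261 replicate 2 the highest array of all. Il1r2, its brightest gene, gave 3221, 4682, 2535 and 3198 of these sums in Gl261 and 3514, 3851 and 2996 in normal brain. Genes of the list that were not tested, Ly6g among them, had no probe set with a single gene symbol. Without normal brain replicate 3, 1 gene of the neutrophil list was called lower. Erythroid genes had 2 of 3 tested genes lower, where 4.2% of all tested genes were, and their summed signal was 109, 4507, 171 and 219 in Gl261 and 9440, 13031 and 16106 in normal brain. Most of the sum came from Hbb-b2, with 4187 in Gl261 replicate 2 and 9087 in normal brain replicate 1. Alas2 was the other gene called lower. Slc4a1 was not called, and Hba-a1, Epb42 and Klf1 were too low to test. The erythroid count was 1 without Gl261 replicate 3 or 4 or normal brain replicate 3. Gl261 replicate 2, the high array for Ngp, Camp and Ltf, was also the high Gl261 array for the erythroid list. It was likewise the highest Gl261 array for the sums of the neutrophil, B cell, monocyte and progenitor lists. It was not the highest for the macrophage, eosinophil, and basophil and mast cell lists.

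B cell genes had 5 of 6 tested genes lower, with sums of 1166 to 1682 in Gl261 and 5270 to 7137 in normal brain. Monocyte genes had 2 lower and 1 higher of 5, with sums of 14083 to 23255 in Gl261 and 21925 to 24433 in normal brain. Only 1 monocyte gene was lower without Gl261 replicate 1, 3 or 4 or normal brain replicate 2 or 3. Basophil and mast cell genes had 0 of 6 called by limma and 4 at an unadjusted p under 0.05, at a median of -1.95, and 1 was called lower without normal brain replicate 2 or 3. They had sums of 94.0 to 588 in Gl261 and 395 to 869 in normal brain. Eosinophil genes had 0 of 2 called by limma and 1 at an unadjusted p under 0.05, with sums of 428 to 677 in Gl261 and 257 to 563 in normal brain. The part of these cell types in the granule gene differences was not tested.

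**Figure D4:**
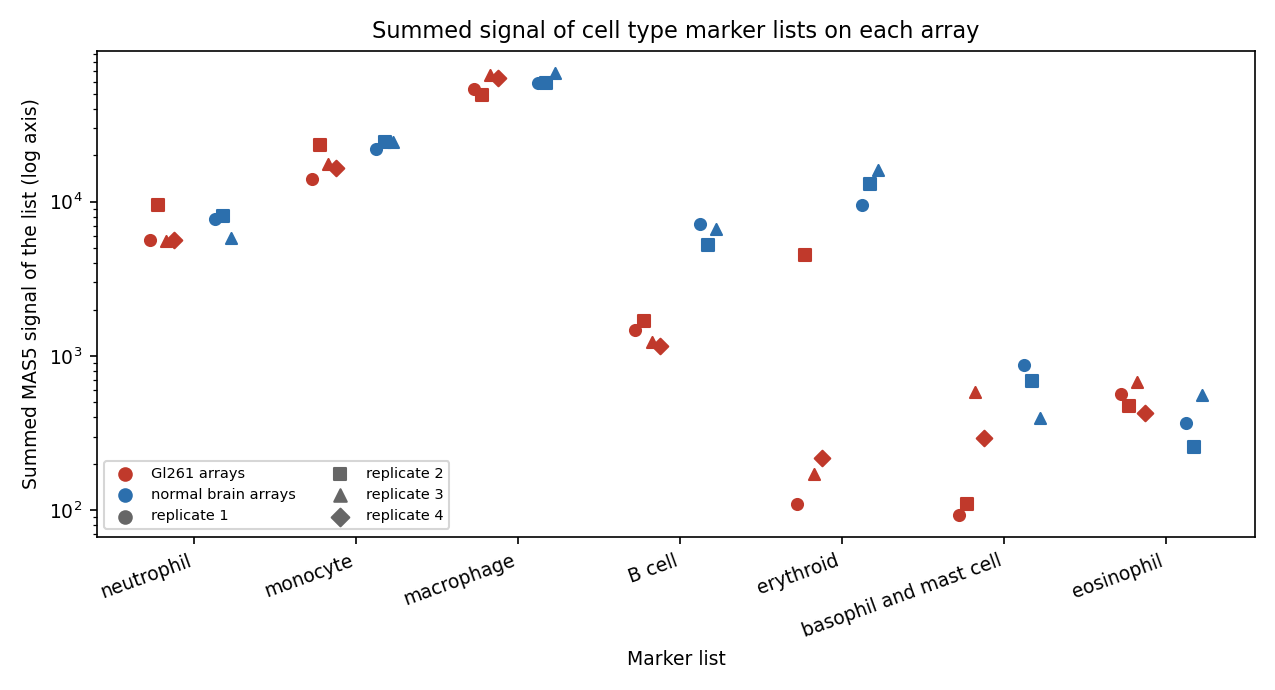
Summed signal of marker lists on each array, on a log axis, with Gl261 left of normal brain. The neutrophil sums of the groups overlap, while the erythroid and B cell sums of Gl261 are all below those of normal brain.

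The tested genes whose centred values over the 7 arrays were nearest to the mean profile of the granule genes were Hpgd, Tceal1, Ptprb, Sox13, Apcdd1, Itm2a, Rhbdf1 and Efnb2. Their root mean square differences from that profile were 0.36 to 0.46 on the log2 scale, against 0.87 to 1.19 for the granule genes themselves. Since these genes were picked as the nearest, their smaller differences follow from the choice. The profile also averages granule genes with large and small log2 differences, so those genes lie away from it. Hpgd, which degrades prostaglandins, was at -2.89, and Itm2a, a membrane protein, at -3.02. The other probe sets of Efnb2, at 0.33 and -0.45, were not called.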

How the data were processed

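Macrophage RNA was measured on 7 arrays, 4 of Gl261 and 3 of normal brain. The values are linear intensity signals that the authors deposited after MAS5, per the submitters' processing notes; neither the version of MAS5 nor detection calls were given there. The deposited signals had nearly the same trimmed mean on every array, so they were already scaled to a common level. No column of values was left unmapped (0 columns). Of 45101 probe sets, 34945 had 1 gene symbol and stood for 18193 genes, with the brightest probe set (by mean log2) standing for each. From the deposited signals log2(signal + 6) was computed, which understates the change of low genes. The 12125 genes with a mean above 4.93, the 40th percentile of non-control probe sets, were tested with limma 3.58.1 in R 4.3.3, with variances that follow the mean, two-sided, and Benjamini-Hochberg adjustment over all of them. Python 3.11.15 and matplotlib 3.10.9 drew the figures. Background was the 95th percentile of 27 unspiked Bacillus control probe sets on each array. The procedure was tested on simulated data. The number of arrays limits the precision.

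The granule genes and lists were chosen with earlier results of these data known. Named were all granule genes, called genes of the granule, surface, regulator, inhibitor and receptor lists, a set whose role is needed to read a granule gene, and the 8 nearest genes. Ctsg, Prtn3, Ptpn23, Flt3, Fcnb, Serpinb1a and Alas2 are outside that rule and were chosen after their values were seen. The same holds for Alpl, Mmp9, Cd14, Itgam, Cybb, Lyz1, Lyz2, Hbb-b2, Slc4a1, Hba-a1, Epb42, Klf1, Cd34, Ms4a3, Cx3cr1, Mertk and Il1r2. The pair tests, the count of genes around Camp, Ngp and Ltf, and the choice of letter strings in promoters were also made after the values were seen. Same-numbered arrays of the groups had correlations of 0.08, -0.01 and 0.03 in their deviations from the group means, where all pairs ran from -0.07 to 0.08. With so few arrays this cannot show whether the numbers pair the arrays, and the labels do not say what a number shares.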

Additional observations from a re-analysis of the deposited data

Results flagged for a closer look

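Among the 4 Gl261 arrays 1 array stood far from the others for 4 genes and 2 lists, out of 56 genes and 16 lists examined; chance alone marks about 1 in 20 such groups. The value given is the gap of the farthest array to its nearest neighbour as a share of the group's range and was above the limit for 4 arrays in each case. It was 0.851 for Ctsg, with Gl261 replicate 3 far below the others, but Ctsg was above background on 0 of the 4 arrays, so that gap lies below background. For Serpinb1a, an inhibitor of neutrophil proteases, the value was 0.842, with replicate 1 far below. It was 0.948 for Fcnb, a ficolin of granulocyte precursors, and 0.933 for Alas2, an enzyme of haem synthesis in red cell precursors, with Gl261 replicate 2 far above the others in both. The summed signal of the specific granule list gave 0.874, with replicate 1 low, and that of the neutrophil list 0.961, the second with Gl261 replicate 2 as the far array. Bright genes weigh most in such sums. In Gl261 replicate 1 the specific granule sum was 23440, with Cybb at 7689 and Chil3 at 4657. Ngp, Camp and Ltf gave 61.8, 78.9 and 51.8 there. Their lowest Gl261 array was replicate 3 for Ngp and Camp and replicate 4 for Ltf.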

How the results depend on the processing

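Over the settings run, the 6 tested granule genes were lower in Gl261 in every fit that tested them, and 0 were called higher. The number called lower was 3 with variances that do not follow the signal, 5 with no filter, 4 with a filter at the 60th percentile, which left out Ltf and Mpo, 4 with median centring, and 5 to 6 without 1 array. Ngp was called in 19 of 19 alternatives and Mpo in 18 of 18. Camp (adjusted p = 0.0652), S100a9 (0.0561) and Ltf (0.0919) lost their calls when variances did not follow the signal. With a pseudocount of 1 or 58 the log2 difference was -4.20 or -2.32 for Ltf and -4.54 or -2.05 for Mpo. The number of all genes called lower, 509, was 304 with median centring, 173 with variances that do not follow the signal, 317 with the mean of probe sets, 325 without Gl261 replicate 2 and normal brain replicate 1 together, a choice made after seeing the data, and 237 to 445 without 1 array. The cause was not tested. With the replicate number as a block, 503 genes and 6 granule genes were called lower, and the log2 difference was -4.29 for Ngp. Low signal limits Elane, and Ltf and Mpo in Gl261.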
